A study of Nicotiana tabacum with 9 samples.

Results

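Tobacco (Nicotiana tabacum) pollen tubes that had grown for 3 h at room temperature and were then kept at 37 °C for 3 h (HS 3 + 3 h) were compared with tubes harvested just before the heat began, after 3 h at room temperature (RT 3 h). All groups were wild-type tubes of cultivar Samsun-NN, grown in vitro on a cellophane foil over solid medium from pollen that was pooled over several plants, and each was sampled as 3 RNA-seq libraries. The comparison took 6 of the 9 libraries of the series. The other 3 were from tubes kept at room temperature for 6 h without heat (RT 6 h), and their values are given beside those of single genes. The HS 3 + 3 h tubes had been heated for 3 h and had also grown for 3 h longer than the RT 3 h tubes, so heat and further growth cannot be told apart in this contrast. The RT 3 h tubes are the state that the cells were in when the heat reached them. Nothing in the labels says which libraries came from separate pollen pools, so the p-values measure the spread between these libraries, which may be technical.

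Plant cells answer heat through heat stress transcription factors (HSFs), which bind heat shock elements in promoters and switch on genes for molecular chaperones. Chaperones hold unfolding proteins in solution, refold them or pull aggregates apart. Multiprotein bridging factor 1C (MBF1C) is a transcriptional coactivator needed for heat tolerance in Arabidopsis. A pollen tube is a tip-growing cell that carries the sperm cells to the ovule, starts its growth with stored transcripts and is among the most heat-sensitive stages of plant life. Male gametophytes are also known for a heat response that differs from that of leaves, with many chaperone genes already active during normal development.

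The libraries held between 14931693 counts on genes (HS 3 + 3 h replicate 1) and 26772286 (RT 3 h replicate 2), so that 0.5 CPM (counts scaled to library size) stood for 7.47 to 13.4 counts. HS 3 + 3 h replicate 1 was the shallowest library and stood apart from its group on the third principal component, which held 4.84% of the variance, and the counts of called genes are therefore also given without it. Of 9 genes with pollen tube names, 8 were tested and 0 were called by edgeR, DESeq2 or the likelihood ratio test (5 higher and 1 lower at an unadjusted edgeR p under 0.05). Of all genes tested edgeR called 12.3%, so 0 calls among so few genes say little. The summed level of the genes with pollen tube names was 40600 to 45500 CPM in the RT 3 h libraries, 51100 to 55900 CPM at RT 6 h and 56600 to 58700 CPM under heat. The 21 photosynthesis genes used as markers of green tissue summed to at most 8.31 CPM in any library, 7 of them had no count in any of the 9 libraries, and the tapetum gene TKPR1 stayed at or below 0.102 CPM. Tobacco is an allotetraploid, and reads from near-identical copies could have been split among them. The libraries were not stranded, so that reads of overlapping genes on opposite strands cannot be told apart either.

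The heat-treated tubes differed from the tubes before heat in 2870 of 23373 genes tested (12.3%). Of these, 1720 genes (7.36%) were upregulated and 1150 (4.92%) were downregulated at an absolute log2 fold change (log2FC) above 1 and an edgeR false discovery rate (FDR) of at most 0.005. Upregulated genes made up 59.9% of the calls, whereas on library totals without the TMM scaling 1161 genes were higher and 2565 lower (31.2% higher) because every log2FC then moved down and the median over all genes became -0.285. With TMM that median was -0.000723, and changes are given relative to it. Without HS 3 + 3 h replicate 1, 1587 genes were higher and 1080 lower. The 3 RT 3 h values and the 3 HS 3 + 3 h values did not overlap in 55.7% of all genes tested, in 1711 of the 1720 upregulated and in 1149 of the 1150 downregulated genes, a separation that the call itself favours. Replicates differed by more than sampling noise, by a chi-square of 1.68 to 2.07 per degree of freedom between HS libraries and of 2.09 to 6.06 between RT 3 h libraries, with RT 3 h replicates 1 and 3 the farthest apart.

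**Figure D1:**
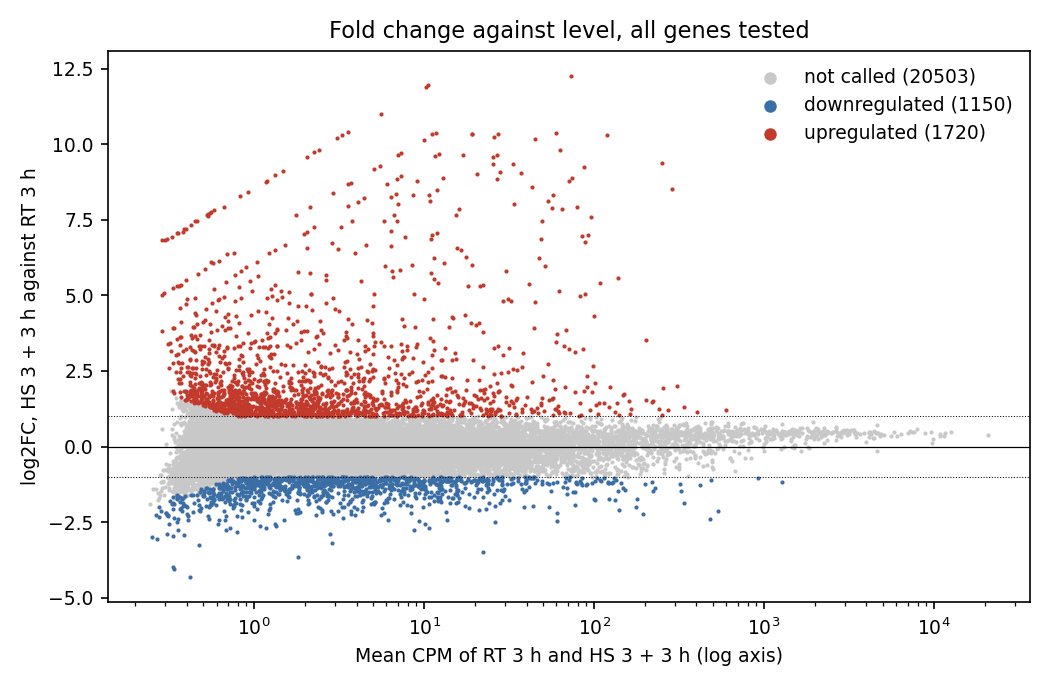
Each point is 1 of the 23373 genes tested, with its mean level in the RT 3 h and HS 3 + 3 h libraries in CPM on a log axis and its log2FC on the vertical axis (positive is higher under heat). Red points are the 1720 upregulated and blue points the 1150 downregulated genes, and dotted lines mark a log2FC of 1 in either direction. Rises reached a log2FC of 12.26 while no fall went beyond -4.33, and the genes above 1000 CPM lay mostly above 0.

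The rises and the falls had different shapes. Upregulated genes had a median log2FC of 1.67, and 653 of them passed 2, 392 passed 3, 185 passed 5 and 68 passed 8. Downregulated genes had a median size of 1.29, only 107 of 1150 passed 2, 8 passed 3 and none passed 5. Most upregulated genes were weakly expressed before the heat: their median level was 0.665 CPM in the RT 3 h and 2.77 CPM in the HS libraries, against 2.63 and 2.70 CPM for all genes tested. In 171 of them every RT 3 h library held at most 3 counts, and 552 passed the filter on low values through the HS libraries alone, so that this subset had to differ. Downregulated genes started from a median of 4.31 CPM and ended at 1.73 CPM.

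Read as shares of all counts, the upregulated genes took 0.790 ± 0.00346% (SD, n = 3) of the RT 3 h libraries, 0.983% of the RT 6 h libraries and 2.65 ± 0.0214% of the HS libraries. The 171 genes with at most 3 counts per RT 3 h library went from 0.000645% to 0.129%. For the downregulated genes these shares were 2.83 ± 0.204% before heat, 1.75% after 6 h without it and 0.897 ± 0.0199% in the heated tubes. These genes were picked for their change in the same libraries, so the shares describe their weight in the transcriptome and test nothing. Fewer of the abundant transcripts were called. Of the 4514 genes with a mean between 10 and 100 CPM 6.27% were upregulated and 5.14% downregulated, of the 947 genes between 100 and 1000 CPM 3.38% and 3.70%, and of the 199 genes above 1000 CPM 0 and 0.503%. The median log2FC of these 199 genes was 0.44, and 189 of them had positive values on the TMM scale, which sets the median over all genes near 0.

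The largest rises came from genes at or near 0 before heat. LOC107789670 had 0, 0 and 0.073 CPM in the RT 3 h libraries and 143, 154 and 140 CPM under HS. Every HS library was far above every RT 3 h library, and against a floor of 3 counts per library the rise was at least 1333-fold. It lies on scaffold NW_015917415.1 of the TN90 assembly from 234373 to 235200 on the plus strand and has a single exon block and no further name in the tables used. LOC107798260 went from 0.154, 0.239 and 0.146 CPM to 243, 244 and 230 CPM, a 1330-fold rise (log2FC = 10.31, edgeR FDR = 1.45e-35), and is likewise a gene of 1 exon block (NW_015929434.1, 4137 to 5047, plus strand). The RT 6 h means of these genes were 0.0524 and 0.182 CPM, so both stayed near 0 in tubes that grew for 6 h without heat.

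The rest of the 15 largest rises had the same form. LOC107779995 rose from between 0 and 0.136 CPM to between 115 and 128 CPM, and LOC107764378, LOC107782616, LOC107802503, LOC107810530 and LOC107790823 had not a single count in any RT 3 h library and reached means of 6.58 to 20.9 CPM. Their rises were at least 60.2-fold (LOC107790823) to at least 192-fold (LOC107764378). LOC107762653, LOC107779834, LOC107798647, LOC107820215 and LOC107778810 rose at least 205-fold to at least 468-fold. The remaining members of these 15 were the MBF1C homolog LOC107808000 and Nthsp26a (LOC107764596), described below.

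Strongly induced genes had few introns. Of the 185 genes with a log2FC over 5, 52 (28.1%) had a single exon block and the median was 2 blocks, against 7.10% and 5 blocks for all genes tested. Of the genes with a log2FC between 2 and 5 the share was 11.8%, between 1 and 2 it was 7.59%, and of the downregulated genes it was 10.2%. Small heat shock protein genes of plants are known to be short with few introns. The tables used give most of these tobacco genes no product name, so whether they are small heat shock protein genes was not tested. Upregulated genes were spread over 1614 scaffolds, 99 of which held 2 or more and 7 of which held 3, the largest number on 1 scaffold. A trio on scaffold NW_015924567.1, picked after its values were seen, rose together: LOC107794867 (4360 to 5165) from 0.302 to 147 CPM, LOC107794868 (32785 to 33607) from 0.101 to 66.8 CPM and LOC107794869 (43596 to 45774) from 0.0114 to 19.9 CPM. All 3 lie on the plus strand, and no HS value overlapped a RT 3 h value.

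Chaperone genes rose as a group. The list held 24 genes named as chaperones or co-chaperones in the reference gene table, and 20 passed the filter. Of these 20, 15 were upregulated and 0 downregulated by edgeR or DESeq2 (0 lower at an unadjusted edgeR p under 0.05). This was 75% called, beside 12.3% of all genes, and the median log2FC was 1.33 against -0.000723 over all genes tested. On library totals without TMM 11 of the 20 passed. The list names few of the small heat shock proteins that a plant genome encodes, since most carry no name in that table. Summed over the list, the share of all counts was 0.0937, 0.0981 and 0.0999% in the RT 3 h libraries, 0.122% on average at RT 6 h, and 0.228, 0.244 and 0.238% under HS, a 2.43-fold difference between the group means with no overlap. The 6 genes of BiP, the Hsp70 of the endoplasmic reticulum, held most of it (0.0793% at RT 3 h and 0.167% under HS). The other 18 genes went from 0.0180% to 0.0701%, a 3.90-fold difference.

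**Figure D2:**
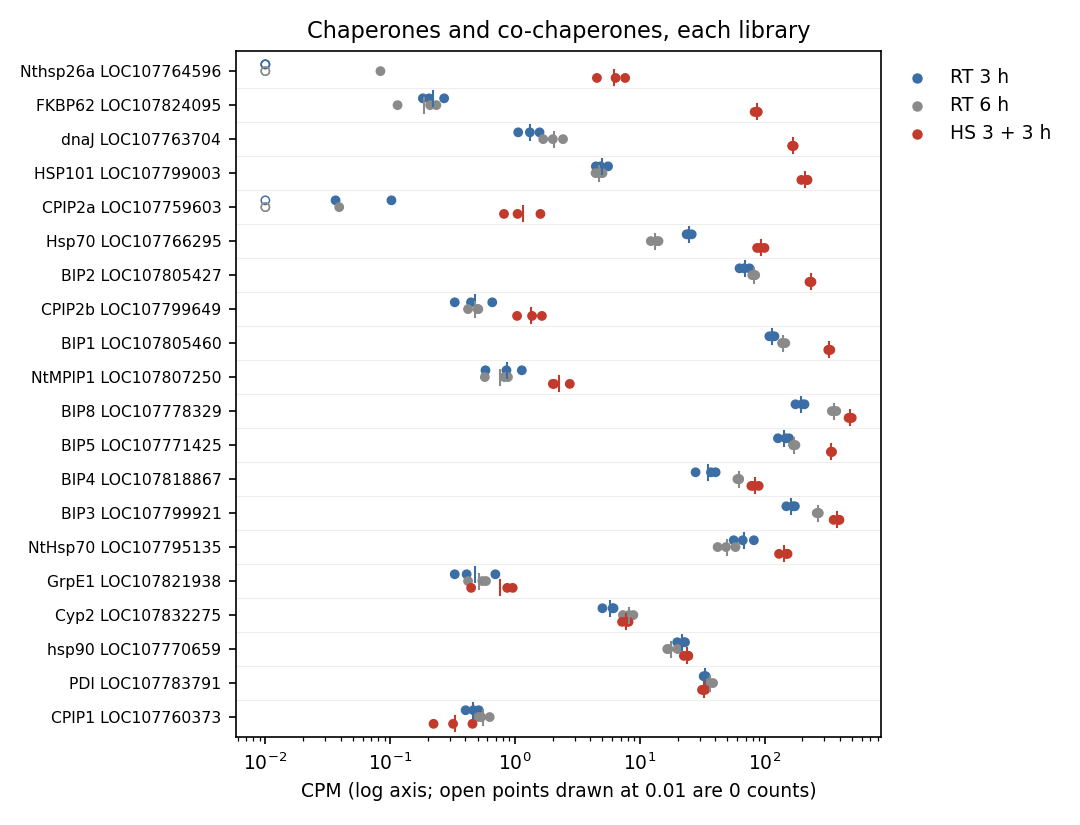
CPM (log axis) of the 20 tested chaperone and co-chaperone genes in each of the 9 libraries, ordered by log2FC. Points are libraries, vertical ticks are group means where no library was at 0, and open points at the left edge are 0 counts. From Nthsp26a down to NtHsp70 the HS 3 + 3 h points lie to the right of the RT 3 h points, while the groups of GrpE1, hsp90, PDI and CPIP1 overlap.

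The small heat shock protein Nthsp26a (LOC107764596) had 0 counts in all RT 3 h libraries and 4.52, 7.61 and 6.37 CPM under HS, a rise of at least 56.5-fold. FKBP62 (LOC107824095), a peptidyl-prolyl isomerase known as ROF1 that works with HSP90 in Arabidopsis, went from 0.270, 0.205 and 0.183 CPM to 82.8, 87.1 and 87.7 CPM (392-fold, log2FC = 8.58 ± 0.13 SE, edgeR FDR = 1.06e-32). A dnaJ gene (LOC107763704), an Hsp40 that hands clients to Hsp70, went from 1.31, 1.57 and 1.06 CPM to 167, 170 and 166 CPM. No HS value came near a RT 3 h value in any of these genes. HSP101 (LOC107799003), the disaggregase that pulls proteins out of aggregates, was at 4.83, 4.43 and 5.55 CPM before heat and at 196, 220 and 218 CPM under it (42.8-fold). Its RT 6 h mean was 4.72 CPM, within the range of the RT 3 h libraries.

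The 8 upregulated Hsp70 genes were abundant before heat and rose less. Cytosolic-type Hsp70 LOC107766295 went from 24.4, 26.0 and 23.6 CPM to 86.7, 99.3 and 91.8 CPM (log2FC = 1.90), and NtHsp70 (LOC107795135) from 81.7, 66.5 and 56.3 CPM to 130, 149 and 152 CPM (log2FC = 1.07, and 0.94 without RT 3 h replicate 3, inside the fold limit). The RT 6 h means were 13.3 and 49.7 CPM, below all RT 3 h values. All 6 BiP genes were upregulated with log2FCs from 1.21 (BIP3) to 1.75 (BIP2), and none of their groups overlapped. BIP8 (LOC107778329), the most abundant member of the list, was at 176, 198 and 208 CPM before heat and at 468, 496 and 483 CPM under HS, but its RT 6 h mean was already 359 CPM. Its log2FC was 0.90 from RT 3 h to RT 6 h and 0.43 from RT 6 h to HS, with FDRs of 3.24e-12 and 4.6e-15, and both stayed inside the fold limit. BIP3 and BIP4 had a similar course, with log2FCs of 0.71 and 0.82 from RT 3 h to RT 6 h and of 0.51 and 0.44 from RT 6 h to HS. BIP1, BIP2 and BIP5 lay at 140, 81.8 and 171 CPM at RT 6 h against 327, 232 and 341 CPM under HS.

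Of the DnaJ-like proteins named for binding viral proteins, CPIP2a, CPIP2b and NtMPIP1 were upregulated at low levels of 1.15 to 2.27 CPM under HS. CPIP1, also named for this, was not called (log2FC = -0.41). Of the 5 chaperone genes that did not pass the test, the annotated hsp90 gene LOC107770659 had 22.9, 22.4 and 19.9 CPM before heat and 24.4, 22.5 and 24.3 CPM under HS (log2FC = 0.12, edgeR FDR = 0.217). Cyp2, a cyclophilin, had a log2FC of 0.43, PDI, a disulfide isomerase, -0.04, GrpE1 0.74 and CPIP1 -0.41. The table names no other HSP90 gene among those tested. Apart from the members named first in the list by size and its most abundant one, these chaperones were singled out after their values were seen, to account for the whole list.

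The HSF family, taken from the study's list of genes detected in these samples that are homologous to Arabidopsis transcriptional regulators, was upregulated in 12 of 19 tested members (11 by DESeq2) and downregulated in 0 by either tool (1 lower at an unadjusted edgeR p under 0.05), with a median log2FC of 1.10. Across all 1296 tested regulators 115 were upregulated and 67 downregulated, together 14.0% beside 12.3% of all genes. On library totals without TMM 9 HSFs passed, and over all regulators the balance turned to 79 higher and 124 lower. Detection in these samples limited the membership of the list.

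**Figure D3:**
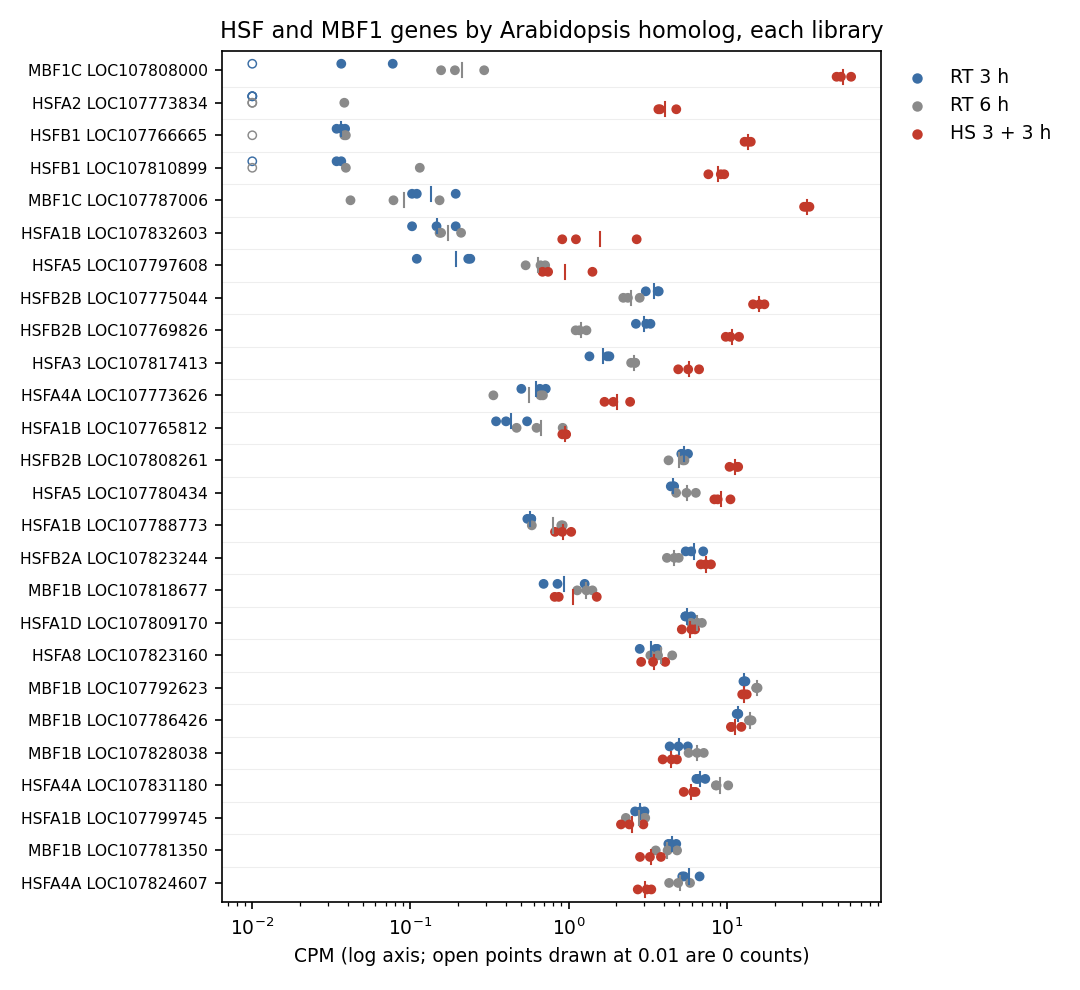
CPM (log axis) of the 19 HSF and 7 MBF1 genes in each library, ordered by log2FC and labelled with the name of the closest Arabidopsis gene. Points are libraries, vertical ticks are group means where no library was at 0, and open points are 0 counts. The MBF1C and HSFB1 pairs and HSFA2 moved from at most 0.193 CPM to between 3.69 and 61.0 CPM under HS, and the points of the MBF1B genes overlap or lie side by side.

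Homologs of heat-inducible HSFs led the family. The homolog of HSFA2 (LOC107773834), in Arabidopsis the factor that prolongs the heat response, had 0 counts at RT 3 h and 3.78, 4.79 and 3.69 CPM under HS, a rise of at least 37.4-fold. Both homologs of HSFB1, a class B factor without an activation domain, rose from at most 1 count per library. LOC107766665 reached 14.2, 13.6 and 12.9 CPM (at least 124-fold), and NtHSF1 (LOC107810899) reached 7.63, 9.62 and 9.15 CPM (at least 80.6-fold). After 6 h at room temperature all 3 genes were still at or below 0.0512 CPM on average.

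The other 9 upregulated HSFs had at least 3 counts in every RT 3 h library, at means from 0.147 CPM (LOC107832603) upward. The 3 homologs of HSFB2B were all upregulated, LOC107775044 from 3.71, 3.07 and 3.65 CPM to 17.3, 14.6 and 16.1 CPM (log2FC = 2.19), LOC107769826 with a log2FC of 1.82 and LOC107808261 with 1.06. The homolog of HSFA3 (LOC107817413), which acts downstream of DREB2 factors in Arabidopsis, rose from 1.35, 1.81 and 1.75 CPM to 6.67, 4.92 and 5.69 CPM. Homologs of the class A1 factors, the constitutive regulators that start the response, were split: of 4 homologs of HSFA1B, LOC107832603 (10.7-fold) and LOC107765812 (2.19-fold, edgeR FDR = 0.0049) were upregulated, and LOC107788773 and LOC107799745 had log2FCs of 0.66 and -0.21 and did not pass. The call of LOC107765812 was lost without any single library other than RT 3 h replicate 2 (FDR 0.0118 to 0.0200). It also did not pass the test from RT 6 h to HS (log2FC = 0.48). The 2 homologs of HSFA5, LOC107797608 and LOC107780434, were upregulated against RT 3 h (log2FC = 2.29 and 1.01). Neither passed from RT 6 h to HS (0.61 and 0.73), and LOC107797608 passed from RT 3 h to RT 6 h (1.70). In these HSFs the rise is therefore not shown against tubes of equal age. The HSFA1D homolog LOC107809170 was at 5.95, 5.46 and 5.48 CPM before heat and at 5.19, 6.29 and 5.96 CPM under it. The lowest value of the family belonged to the HSFA4A homolog LOC107824607 (log2FC = -0.93), whose groups did not overlap but which stayed inside the fold limit except without RT 3 h replicate 3 or HS 3 + 3 h replicate 2 (-1.008 and -1.005), while LOC107773626, another HSFA4A homolog, rose 3.22-fold.

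Of 7 MBF1 genes, the 2 homologs of MBF1C were upregulated and the 5 homologs of MBF1B were not (28.6% called, beside 12.3% of all genes). LOC107808000 was at 0.0772, 0 and 0.0365 CPM at RT 3 h and at 49.4, 52.5 and 61.0 CPM under HS, at least 497-fold higher, and LOC107787006 went from 0.193, 0.102 and 0.110 CPM to 30.8, 31.7 and 33.2 CPM (236-fold, edgeR FDR = 2.26e-28). The MBF1B homologs had log2FCs between -0.45 and 0.21 at levels of up to 13.3 CPM. The 2 genes of the coactivator p15 family, LOC107814572 and LOC107801339, rose 12.7-fold and 9.34-fold to 4.30 and 5.59 CPM.

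Members of several other regulator families rose. MYB-related genes were upregulated in 14 of 71 and downregulated in 4 of 71, together 25.4% beside 12.3% of all genes. On library totals without TMM these counts were 11 and 9. The rises were led by homologs of the REVEILLE clock factors RVE1 (LOC107806142, 27.7-fold), RVE7 (LOC107812899, 14.7-fold) and RVE6 (LOC107773146, 7.49-fold, to 13.3, 12.6 and 13.2 CPM). AP2-EREBP genes were upregulated in 7 of 34 and downregulated in 1, together 23.5% beside 12.3% of all genes. The falls were 0 without HS 3 + 3 h replicate 2 and 2 without HS 3 + 3 h replicate 3. Homologs of RAP2.4 (LOC107784396, 14.6-fold) and of the heat-linked factor DREB2C (LOC107816670, 4.94-fold) were among those that rose. WRKY33 homolog LOC107769908, known from pathogen defence, rose 9.85-fold from 0.207 to 2.04 CPM and was at 0.634 CPM at RT 6 h. The MADS-box genes LOC107763429 and LOC107793038, 2 of 3 tested homologs of AGL42, rose at least 13.8-fold and 34.0-fold, and the third had a log2FC of -0.31.

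Of 8 tested homologs of U2AF35B, the small subunit of the factor that marks the 3′ end of introns for splicing, 4 rose and 4 were not called, with log2FCs down to -0.83. The 3 largest rises were those of LOC107789911, from 2.09, 2.05 and 2.59 CPM to 21.2, 19.8 and 20.7 CPM (9.17-fold), of LOC107802272 (8.04-fold) and of LOC107810075 (7.11-fold). They sit in the C3H zinc finger family, of which 7 of 90 were upregulated and 1 downregulated. Together these were 8.89%, below the 12.3% of all genes (the falls were 4 without HS 3 + 3 h replicate 2 and 2 without any 1 of the RT 3 h libraries). LOC107759203, a homolog of the chromatin reader EBS, rose from 1.51, 1.40 and 1.97 CPM to 20.8, 19.4 and 19.5 CPM, and LOC107826560, also a homolog of EBS, rose 4.07-fold, while the third tested homolog had a log2FC of -0.38 and was not called. The PHD family to which they belong had 2 upregulated and 2 downregulated members of 91 (4.40%, below the 12.3% of all genes), and the falls became 1 without RT 3 h replicate 2, RT 3 h replicate 3 or HS 3 + 3 h replicate 1 and 0 without HS 3 + 3 h replicate 3.

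Other families carried more falls than rises. GRAS genes were split, with 4 up and 5 down of 17, together 52.9% beside 12.3% of all genes. The homologs of the DELLA gene RGL1, LOC107787526 and LOC107826165, rose 5.63-fold and 4.38-fold, with RT 6 h means of 0.623 and 1.97 CPM. LOC107787526 passed the test from RT 3 h to RT 6 h (log2FC = 1.66) but not from RT 6 h to HS (0.82). For LOC107826165 the first step did not pass (0.67) and the second did (1.46). The SCL13 homolog LOC107776267 fell from 28.0, 24.3 and 22.6 CPM to 5.19, 7.66 and 7.65 CPM (log2FC = -1.84). The Tify family, which holds the JAZ repressors of jasmonate signalling, fell in 3 of 9 members and rose in 0 by edgeR and by DESeq2 (0 higher at an unadjusted edgeR p under 0.05). This was 33.3% called, beside 12.3% of all genes. The falls were in homologs of JAZ3 (LOC107765037, log2FC = -1.41, 1 of 3 tested), JAZ2 (LOC107808301, -1.23) and JAZ8 (LOC107798522, -1.62). Brassinosteroid factors of the BES1 family fell in 3 of 10 (LOC107792445, LOC107777518 and LOC107815408), 30% called beside 12.3% of all genes. This count became 0 without HS 3 + 3 h replicate 3 and was 1 by DESeq2. LOC107815408 (log2FC = -1.02) was also lost without RT 3 h replicate 1 (-0.92) and without HS 3 + 3 h replicate 1 (-0.98). Of 49 bZIP genes 5 fell and 1 rose, together 12.2% and so near the 12.3% of all genes. Of 5 tested homologs of bZIP53 2 fell, among them LOC107818886 from 24.9, 23.1 and 19.3 CPM to 7.63, 6.88 and 6.42 CPM.

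**Figure D4:**
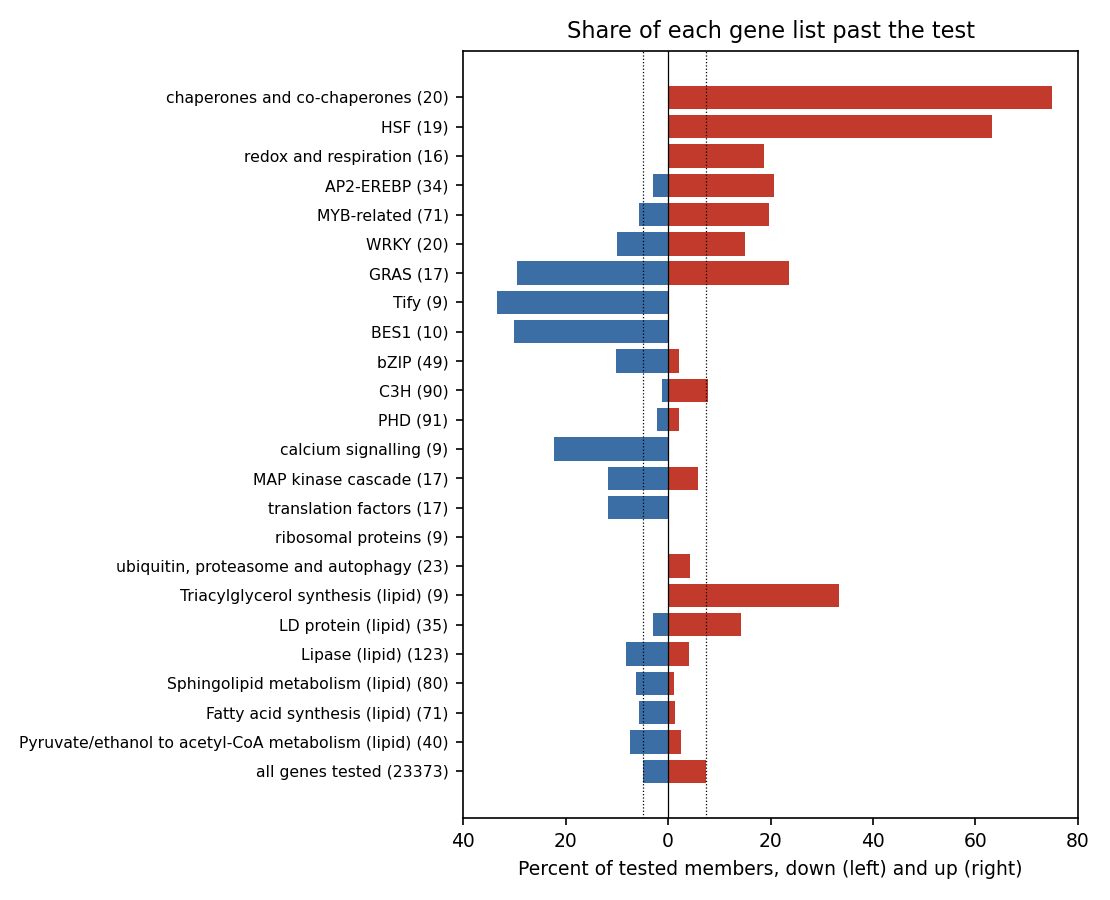
Bars give the percent of the tested members of each gene list that were upregulated (red, to the right) or downregulated (blue, to the left), with the number tested in parentheses. Dotted lines mark the shares over all genes tested, 7.36% up and 4.92% down. Chaperones (15 of 20) and HSFs (12 of 19) stand far to the right, and the Tify, BES1 and calcium signalling bars extend to the left only.

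Transcripts of the alternative oxidases, mitochondrial enzymes that pass electrons from ubiquinol directly to oxygen, rose. AOX2 (LOC107781761) rose from 9.69, 10.5 and 9.64 CPM to 110, 106 and 112 CPM (11.0-fold, log2FC = 3.45), and Aox1 (LOC107763364) from 13.6, 14.4 and 14.1 CPM to 96.8, 90.9 and 93.5 CPM (6.68-fold). Their RT 6 h means of 26.2 and 37.1 CPM lay between the groups, and both genes also passed the test between RT 3 h and RT 6 h. A further homolog of AOX1A, LOC107817403, went from 0 counts to 2.59, 3.10 and 3.14 CPM, and an ascorbate peroxidase (LOC107765289), which removes hydrogen peroxide, rose 3.35-fold. In all, 3 of 16 tested redox and respiration genes were called (18.8%, beside 12.3% of all genes). All 3 were upregulated, and 0 were downregulated by edgeR and by DESeq2 (3 lower at an unadjusted edgeR p under 0.05).

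In the list of sugar metabolism and transport 1 gene rose and 1 fell of 23 tested (8.70%, beside 12.3% of all genes). Galactinol synthase GolS1 (LOC107794006), the first step towards the raffinose sugars that protect cells under stress, rose from 11.3, 13.8 and 15.7 CPM to 128 CPM in each HS library (9.38-fold). The sucrose transporter SUT3 (LOC107814196) fell from 89.3, 85.4 and 83.7 CPM to 21.8 ± 0.248 CPM (SD, n = 3, log2FC = -2.00, no overlap), with 53.0 CPM at RT 6 h. The falls of the list became 2 without RT 3 h replicate 2 or 3 or HS 3 + 3 h replicate 2 or 3.

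The study followed 31 further genes of interest that it had picked from its data, of which 25 were tested, 18 were upregulated and 5 downregulated, and this count is therefore no independent evidence. The 2 homologs of AT3G10020, a gene of unknown function, rose at least 222-fold (LOC107766703, to 24.2, 26.2 and 22.4 CPM) and at least 126-fold (LOC107759427). LOC107778746, a homolog of the jasmonate oxidase JAO2, rose at least 213-fold, and LOC107795525, a homolog of the auxin oxidase DAO1, rose from 0.811, 0.682 and 0.767 CPM to 13.8, 13.5 and 14.8 CPM. All 3 homologs of the phosphoethanolamine and phosphocholine phosphatase PEPC1 were upregulated, LOC107808981 from 10.4, 9.89 and 8.22 CPM to 56.4, 52.8 and 49.8 CPM. SPDS3 (LOC107764611), a homolog of a polyamine synthase, rose 11.0-fold, while the arginine decarboxylase homolog ADC2 (LOC107759371) went from 72.8 to 40.3 CPM (log2FC = -0.86) and stayed inside the fold limit.

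The most abundant upregulated genes fell into 2 kinds. LOC107807848 and LOC107765261 were nearly silent before heat, at 1.39, 1.81 and 1.39 CPM and at 0.579, 0.819 and 0.803 CPM, and reached 549, 594 and 578 CPM and 482, 509 and 501 CPM under HS, rises of 375-fold and 678-fold. Both have 3 exon blocks and exon lengths of 2442 and 2439 bases, and no name in the reference table. The other 8, among them 3 BiP genes, were already at 104 to 356 CPM and rose 2.06-fold to 4.01-fold. LOC107814063 went from 395, 352 and 322 CPM to 782, 856 and 858 CPM, the highest level of any upregulated gene, and LOC107795681 from 114, 128 and 123 CPM to 460, 492 and 516 CPM.

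**Figure D5:**
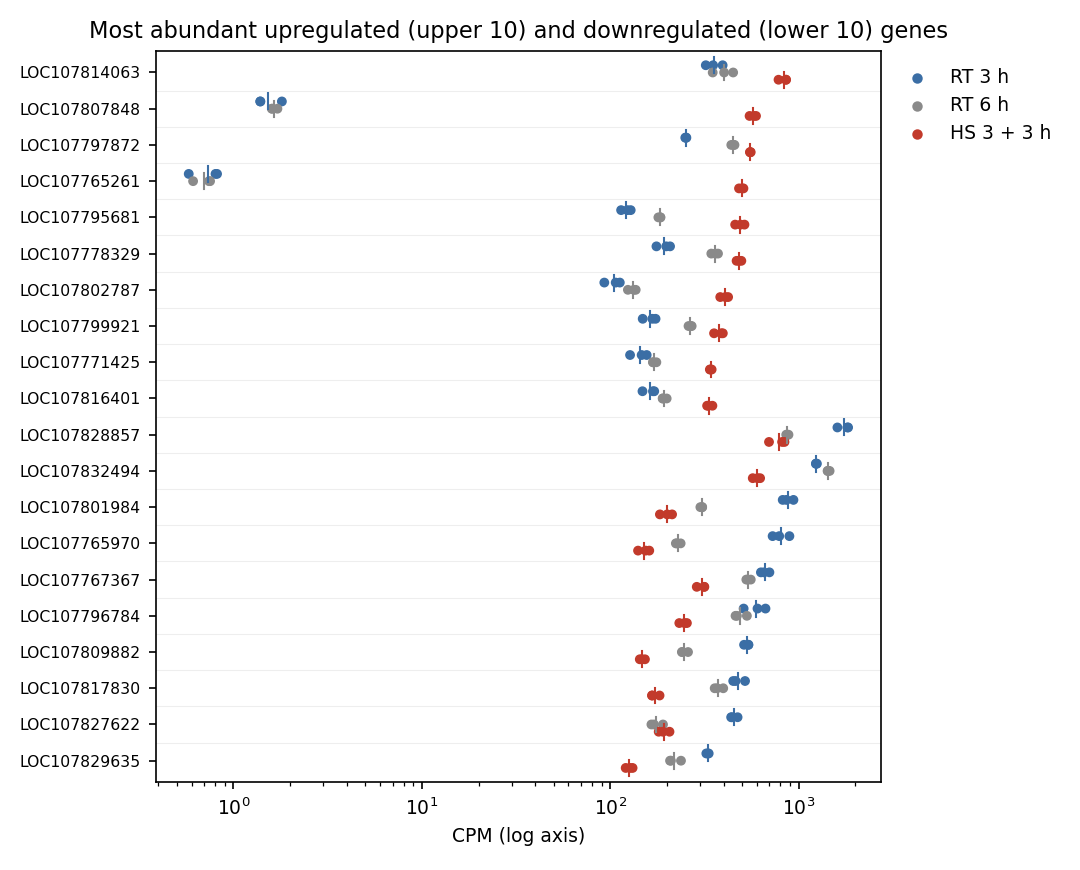
CPM (log axis) of the 10 most abundant upregulated genes (upper rows) and the 10 most abundant downregulated genes (lower rows) in the 9 libraries, with group means as vertical ticks. LOC107807848 and LOC107765261 rise from the left edge while the other upregulated genes rise by 2.06-fold to 4.01-fold. Among the downregulated genes the grey RT 6 h points lie between the other groups for most, beside the HS points for LOC107828857 and LOC107827622, and above the RT 3 h points for LOC107832494.

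Abundant genes that fell took different positions after 6 h without heat. LOC107828857, the most abundant downregulated gene, went from 1815, 1830 and 1606 CPM to 696, 841 and 817 CPM, and was at 871 ± 12.1 CPM (SD, n = 3) at RT 6 h. LOC107827622 likewise went from 452 to 192 CPM, with 176 CPM at RT 6 h. LOC107832494 went the other way without heat: it was at 1235, 1250 and 1237 CPM at RT 3 h, at 1438 ± 19.1 CPM at RT 6 h and at 605, 571 and 624 CPM under HS. LOC107801984 (874 to 199 CPM) and LOC107765970 (803 to 152 CPM) fell furthest of the 10, 4.39-fold and 5.29-fold, and had 305 and 228 CPM at RT 6 h. For these 2 genes the fall passed the test between RT 3 h and RT 6 h (log2FC = -1.51 and -1.81) and the further difference to HS stayed inside the fold limit (-0.62 and -0.59).

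Some genes that were upregulated against RT 3 h stood higher still without heat. The homolog of GDPD3 (LOC107763020), a glycerophosphodiester phosphodiesterase, was at 13.9, 14.7 and 14.5 CPM at RT 3 h, at 35.9, 27.4 and 27.0 CPM under HS and at 48.3 CPM at RT 6 h. Its log2FC of 1.04 became 0.92 without HS 3 + 3 h replicate 1 and 1.00 without RT 3 h replicate 1, and the call was lost in both cases. The zinc finger gene LOC107794101 rose from 1.51 to 5.15 CPM under HS and stood at 14.7 CPM at RT 6 h, and its log2FC was 3.29 from RT 3 h to RT 6 h and -1.52 from RT 6 h to HS, both past the test.

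The largest falls were in weakly expressed genes. LOC107766683, a gene of 29 exon blocks, went from 0.695, 0.750 and 0.949 CPM to 0.0741, 0 and 0.0455 CPM, at least 4.83-fold lower. LOC107795935 was the largest fall of a gene above 10 CPM, from 44.7, 39.3 and 38.9 CPM to 3.33, 4.24 and 3.32 CPM (11.3-fold, log2FC = -3.49, edgeR FDR = 2.66e-24). At RT 6 h it had fallen to 11.9 CPM, and the steps from RT 3 h to RT 6 h (log2FC = -1.77) and from RT 6 h to HS (-1.70) both passed the test. LOC107772008 fell 13.6-fold, from 2.78, 3.68 and 3.58 CPM to 0.148, 0.319 and 0.273 CPM, and LOC107807853 fell 7.92-fold.

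Of 3 homologs of the metacaspase MC1, a protease linked to programmed cell death, 2 were tested and both were downregulated, and the third did not pass the filter on low values. LOC107820452 fell from 5.60, 4.98 and 4.86 CPM to 0.741, 0.593 and 0.410 CPM (8.85-fold) and stood at 3.57 CPM at RT 6 h, and LOC107820447 fell 4.92-fold from 0.888, 0.750 and 1.02 CPM. The cytosolic isocitrate dehydrogenase homolog LOC107768947 fell from 20.9, 16.1 and 12.0 CPM to 5.63, 5.47 and 6.01 CPM. The groups did not overlap in any of the 3 genes.

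Calcium signalling genes were called in 2 of 9 (22.2%) and MAP kinase cascade genes in 3 of 17 (17.6%), beside 12.3% of all genes. The calcium sensor CBL2 (LOC107813595) fell from 61.2, 56.3 and 57.1 CPM to 23.2, 20.9 and 20.6 CPM (log2FC = -1.45), and the kinase CDPK15 (LOC107829574) fell with a log2FC of -1.05. CDPK15 went inside the fold limit without RT 3 h replicate 3 (-0.96) or HS 3 + 3 h replicate 1 (-0.93). In the MAP kinase cascade the phosphatase NtMKP1 (LOC107780873) rose 2.52-fold and NPK2 (LOC107811474) and MPK10 (LOC107798175) fell, with MPK10 lost without HS 3 + 3 h replicate 2 (FDR 0.0070). Of the 17 translation factors tested 2 were called (11.8%, near the 12.3% of all genes). The eIF4E gene LOC107770689 and the eIF4A gene LOC107785067 fell, both with log2FC = -1.10, to HS means of 2.85 and 7.85 CPM, beside RT 6 h means of 3.30 and 6.97 CPM. LOC107770689 was lost without HS 3 + 3 h replicate 3 (-0.91) and LOC107785067 without RT 3 h replicate 1 (-0.99). Of 9 ribosomal protein genes 0 were called by edgeR or DESeq2, beside 12.3% of all genes by edgeR (1 higher and 1 lower at an unadjusted edgeR p under 0.05, median log2FC = -0.23). Of 23 genes of ubiquitin, proteasome and autophagy 1 was called (4.35%, beside 12.3% of all genes), and 2 were without HS 3 + 3 h replicate 3. The called gene was the autophagy gene ATG9 (LOC107804901, 2.12-fold up, and inside the fold limit at 0.99 without RT 3 h replicate 2).

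Lipid genes, from the study's list of detected homologs of Arabidopsis lipid genes, were upregulated in 23 and downregulated in 38 cases, together 8.66% of those tested, beside 12.3% of all genes. On library totals without TMM these counts became 11 and 86. The desaturases that set the number of double bonds in membrane lipids stayed inside the fold limit in all 10 homologs with edgeR and DESeq2 (7 higher and 2 lower at an unadjusted edgeR p under 0.05). The most abundant, the FAD2 homolog LOC107829678, had 1533, 1381 and 1295 CPM at RT 3 h and 2358, 2491 and 2586 CPM under HS (log2FC = 0.81, edgeR FDR = 2.28e-14), and its groups did not overlap. The other FAD2, FAD3 and FAD7 homologs had log2FCs from 0.33 to 0.65, the FAD8 homologs 0.12 and 0.24, and the FAD6 homologs -0.42 and -0.57.

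Triacylglycerol synthesis and lipid droplet proteins held 8 of the 23 lipid rises. Of the 9 triacylglycerol synthesis genes 33.3% were called, and of the 35 lipid droplet genes 17.1%, beside 12.3% of all genes. Whether the lipid rises gather in these lists was not tested. Of 9 diacylglycerol acyltransferase genes, which make triacylglycerol, 3 rose: DGAT1 homologs LOC107830919 (0.850, 1.26 and 0.986 CPM to 1.93, 3.37 and 2.96 CPM) and LOC107775049 (2.50-fold), and DGAT2 (LOC107779882, 3.50-fold). None of the 3 passed a test against a log2FC of 1, and LOC107775049 was lost without RT 3 h replicate 2 (FDR 0.0051) or HS 3 + 3 h replicate 1 (log2FC = 0.95). From RT 6 h to HS all 3 were called, with log2FCs of 2.83, 2.29 and 1.43. LOC107830919 had fallen to 0.397 CPM at RT 6 h (log2FC = -1.37, called). The DGAT1 homolog LOC107789692 was not called against RT 3 h (1.02, edgeR FDR = 0.0204) but was from RT 6 h to HS (2.49). The DGAT2 homolog LOC107822720 was called in neither (0.86 and 0.77). The most abundant of the 9, the DGAT1 homolog LOC107821867, had 19.8, 20.5 and 19.8 CPM before heat and 17.8, 15.6 and 14.5 CPM under it (log2FC = -0.35). Of 35 genes for lipid droplet proteins 5 rose and 1 fell (4 and 4 on library totals without TMM, and 2 falls without any 1 of the RT 3 h libraries or HS 3 + 3 h replicate 2). LDAP1 (LOC107804268), a coat protein of droplets in tissues other than seeds, rose from 40.3, 42.8 and 44.3 CPM to 157, 141 and 154 CPM (log2FC = 1.82), with 68.8 CPM at RT 6 h. The steroleosin homolog HSD5 (LOC107774779) rose 38.1-fold to 3.12 CPM, and an oleosin homolog, OLE5 (LOC107821969), at least 10.4-fold to 1.41, 0.912 and 1.09 CPM.

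The lipid falls were spread over several steps. The most abundant was a homolog of HMG-CoA synthase (LOC107777352), an early enzyme of the mevalonate pathway, and the only 1 of 4 tested homologs called. It fell from 336, 326 and 312 CPM to 116, 118 and 122 CPM (log2FC = -1.46), with 189 CPM at RT 6 h. The phosphatidate phosphatase homolog PAH1 (LOC107806648), which makes the diacylglycerol for storage lipids, fell from 117, 130 and 131 CPM to 51.9, 51.0 and 54.2 CPM. It was the only 1 of 3 tested PAH1 homologs called, and the others had positive log2FCs of up to 0.39. Of 4 tested homologs of the ceramide synthase LOH2 2 fell (LOC107820623, log2FC = -1.40, and LOC107776446, -1.21) and 2 were not called. The sphingolipid genes as a list had 1 up (0 without RT 3 h replicate 2 or HS 3 + 3 h replicate 3) and 5 down of 80. Together these were 7.5%, below the 12.3% of all genes. Lipases had 5 up (3 without HS 3 + 3 h replicate 2 or 3) and 10 down of 123, together 12.2% and so near the 12.3% of all genes, with the lipase homolog LOC107786539 falling from 132, 121 and 114 CPM to 29.8, 33.0 and 33.0 CPM and LOC107789128 rising 4.82-fold. In the route from pyruvate to acetyl-CoA the plastid pyruvate dehydrogenase subunit E1 beta (LOC107818291, the only 1 of 4 tested homologs called) fell 4.15-fold. The aldehyde dehydrogenase homolog ALDH2B7 (LOC107779989) rose 6.34-fold, while the other of 2 tested homologs had a log2FC of -0.605 and was not called. For LOC107779989 the steps from RT 3 h to RT 6 h (log2FC = 1.07) and from RT 6 h to HS (1.59) both passed the test.

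Tobacco copies of a gene were not always called together. Since 12.3% of all genes were called, a single called copy says little about how the copies differ, which was not tested. Among 606 Arabidopsis homologs with at least 2 tested tobacco genes in the lists of the study, 152 had a called member. In 17 of them every tested copy was upregulated and in 6 every copy was downregulated, and 6 had copies called in opposite directions. An example was the homolog of bHLH25 (AT4G37850), of which LOC107794341 had 0 counts at RT 3 h and 0.741, 0.684 and 0.546 CPM under HS (below the filter without HS 3 + 3 h replicate 1 or 2), while LOC107805377 fell from 4.79, 3.92 and 3.80 CPM to 0.815, 0.912 and 1.68 CPM.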

How the data were processed

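Per the labels and the methods of the study, RNA of pollen tubes was made into non-stranded mRNA libraries. The authors aligned the reads with STAR 2.5.2a to the TN90 genome and deposited whole-number counts per gene from featureCounts 1.5.0-p1, without normalization. How reads that map to several places were handled is not given in the sources used here. From these counts (74044 genes, 9 libraries), log2FC and FDR (Benjamini-Hochberg) came from the quasi-likelihood test of edgeR 4.0.16 (R 4.3.3) after TMM scaling of the 6 libraries compared, for genes above 0.5 CPM in 2 or more of them. A called gene had an FDR of at most 0.005 and a log2FC above 1 in size. CPM are counts per 1000000 counts of TMM-scaled library size. The same fit was made for RT 6 h against RT 3 h and for HS against RT 6 h, which share libraries with this comparison, and their values are given side by side only. CPM values used TMM factors over all 9 libraries, and the HS factors were lower (0.896 to 0.906) than those of RT 3 h (1.09 to 1.13). Folds of single genes are ratios of mean CPM. If no library of a group exceeded 3 counts, the fold is a lower bound against 3 counts per library.

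The members and lists were chosen with earlier results of these data known. Named are the 15 largest rises and falls among called genes whose groups do not overlap, the 10 most abundant calls in each direction, for each list its 3 largest calls and most abundant member, the study's genes of interest, and every HSF, MBF1, DGAT and FAD homolog; the other chaperones and the scaffold trio were added after their values were seen. Lists came from names in the RefSeq table of cultivar K326, which held 56627 of the 72500 gene names counted and a further name for 1081 of them, and from the study's own lists of regulators and lipid genes. The deposited annotation gave scaffolds and exon blocks of the TN90 assembly. In simulated data 91.6% of genes changed by 1.5 on the log2 scale and 100% of those changed by 3 were called, with 0 of 22429 unchanged genes. Every simulated gene had the same variation between libraries (a coefficient of variation of 0.0571). With that spread and the fold limit, calls of unchanged genes were unlikely from the start. The simulation says nothing about genes that varied more. Counting error only is covered by the floor. Alternatives were the likelihood ratio test, DESeq2 1.42.0, other scalings and filters, a test against a log2FC of 1, a replicate block and leaving out each library.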

Additional observations from a re-analysis of the deposited data

How the results depend on the processing

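The counts of called genes moved most with the fold threshold, the scaling and the filter. A test against a log2FC of 1 inside edgeR left 790 genes higher and 244 lower, and 120 of the 301 called list members. Library totals without TMM gave 1161 higher and 2565 lower, and 371 list members. Requiring 10 counts in every library left 18610 genes tested, 1020 higher and 869 lower, with 215 list members, since genes with no counts before heat were then not tested. DESeq2 called 1483 and 977, the likelihood ratio test 1821 and 1253, DESeq2 size factors in edgeR 1716 and 1154, the fit over all 9 libraries 1755 and 1147, an FDR of at most 0.05 1911 and 1393, and no filter 2012 and 1287. Leaving out each library in turn gave 1561 to 1696 genes higher, 1024 to 1203 lower and 275 to 296 list members, and the chaperone share of all counts then differed by 0.136 to 0.144 percentage points (0.139 with all libraries). The HS 3 + 3 h and RT 3 h means lay 136.3 units apart on the first principal component, 98.26 with the 500 genes of highest variance, 140.2 without TMM and 151.8 with a prior count of 0.5, and the cause was not tested. Of 1899 values of the 122 named genes under these alternatives 1837 kept their direction and their side of the thresholds, 58 were no longer called, 4 became called and 0 turned direction. The loss came in 23 genes with the test against a log2FC of 1, in 7 without TMM and in 4 with DESeq2, and 51 genes had no value at 10 counts in every library. Depth limits the genes that had at most 3 counts before heat, whose rises are lower bounds. The search of promoters for heat shock elements and the chaperone list by homologs were not run.

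With the replicate block, which treats equal replicate numbers as pairs, 1682 genes were higher and 1117 lower, and 2772 of the 2870 calls were shared. It moved the called list members to 295 and left the chaperone share difference at 0.139 percentage points. Deviations from the group means of samples with equal numbers correlated across genes at 0.0131, 0.0166 and -0.00888, and not every sample correlated best with its own number, so the numbers were not used as pairs.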
